A study of Mus musculus with 7 samples.

Results

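Heme oxygenase-1 (Hmox1), the transcription factor NRF2 (encoded by Nfe2l2), 6 further NRF2 targets (Nqo1, Gclm, Gclc, Txnrd1, Srxn1 and Slc7a11) and the metallothioneins Mt1 and Mt2 were followed in mouse adipocytes with and without the short-chain fatty acid receptor FFA2. These 10 genes were taken from a table of 57010 by their symbols, and all 10 passed the filter on low counts that left 17039 genes for testing. The RNA came from mature white adipocytes, freed by collagenase from the perigonadal fat of male mice that were killed at 20 weeks of age and had eaten standard chow without any other treatment. Controls were 3 FFA2 fl/fl mice, which carry the floxed alleles and no Cre. The 4 Adipoq-F2-KO mice carry the same floxed alleles and Cre driven by the adiponectin promoter, so the deletion is aimed at adipocytes and other cells of the fat pad keep the gene. The genotypes were littermates housed together. No group with Cre and without the floxed alleles was part of the comparison, so an effect of the Cre transgene and an effect of FFA2 loss cannot be told apart.

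NRF2 is held low by KEAP1, an adaptor that hands it to the CUL3 ubiquitin ligase. Electrophiles and oxidants modify KEAP1, NRF2 accumulates, pairs with a small MAF protein and binds antioxidant response elements in front of genes for glutathione synthesis, thioredoxin recycling and quinone reduction. Hmox1, which opens the heme ring and releases iron, carbon monoxide and biliverdin, is bound by the same factor but is also held down by the heme-sensitive repressor BACH1 and answers to other stress signals. Metallothioneins are small cysteine-rich proteins that bind zinc and copper, and their genes answer mainly to the zinc sensor MTF1 and to glucocorticoids. In fat, Hmox1 is made by adipocytes and also by macrophages.

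Each library held between 30478997 and 39992605 counts, where each sequenced fragment appears to add 2 counts. Ffar2, the gene of FFA2, stood at 37.5, 33.9 and 32.0 CPM (counts scaled to a common library size, with TMM factors) in the FFA2 fl/fl libraries and at 1.68, 1.15, 1.33 and 2.58 CPM in the Adipoq-F2-KO libraries, which fits the labels of all 7. Markers of adipocytes were abundant, with Adipoq at 2419 to 3762 CPM and Cfd at 9957 to 15487 CPM over all libraries, and markers of other cell types were present too. Adipoq-F2-KO replicate 4 stood apart in several respects: it had the fewest counts and the lowest sum of adipocyte markers. Genes of the mitochondrial chromosome took 4.41% to 5.77% of the counts of FFA2 fl/fl libraries and 6.61% to 10.3% of those of Adipoq-F2-KO libraries. Leaving these genes and one abundant gene without a symbol out of the fit gave calls for the same 4 genes of the 10. In a bulk sample, fewer cells of a type and less RNA per cell cannot be told apart, and this holds for every value that follows.

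Hmox1 was not the one gene of the 10 that was higher in Adipoq-F2-KO libraries. It rose 2.50-fold, and Srxn1 (2.28-fold), Slc7a11 (1.97-fold) and Txnrd1 (1.67-fold) rose with it, each at an adjusted p under 0.05 in edgeR's quasi-likelihood test. Of all genes tested, 0.798% were called higher and 1.02% in either direction. Nqo1, Gclc, Nfe2l2, Mt1 and Mt2 had positive log2 fold changes between 0.26 and 0.70 that did not pass the threshold, and Gclm had a value of -0.04. At an unadjusted p under 0.05, 9 of the 10 passed in edgeR, all but Gclm, where 17.9% of all genes tested did. None of the 10 was called lower by edgeR, DESeq2 or limma voom. In 6 of the 10 every Adipoq-F2-KO library lay above every FFA2 fl/fl library, an arrangement found in 8.86% of all genes tested, while 17.6% had no overlap in either direction. The median log2 fold change was 0.60 over the 10 genes and 0.0037 over all genes tested. The 10 genes and the lists below were chosen with earlier results of these data known. Their values beside those of all genes are therefore a description and not a test of the set.

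**Figure D1:**
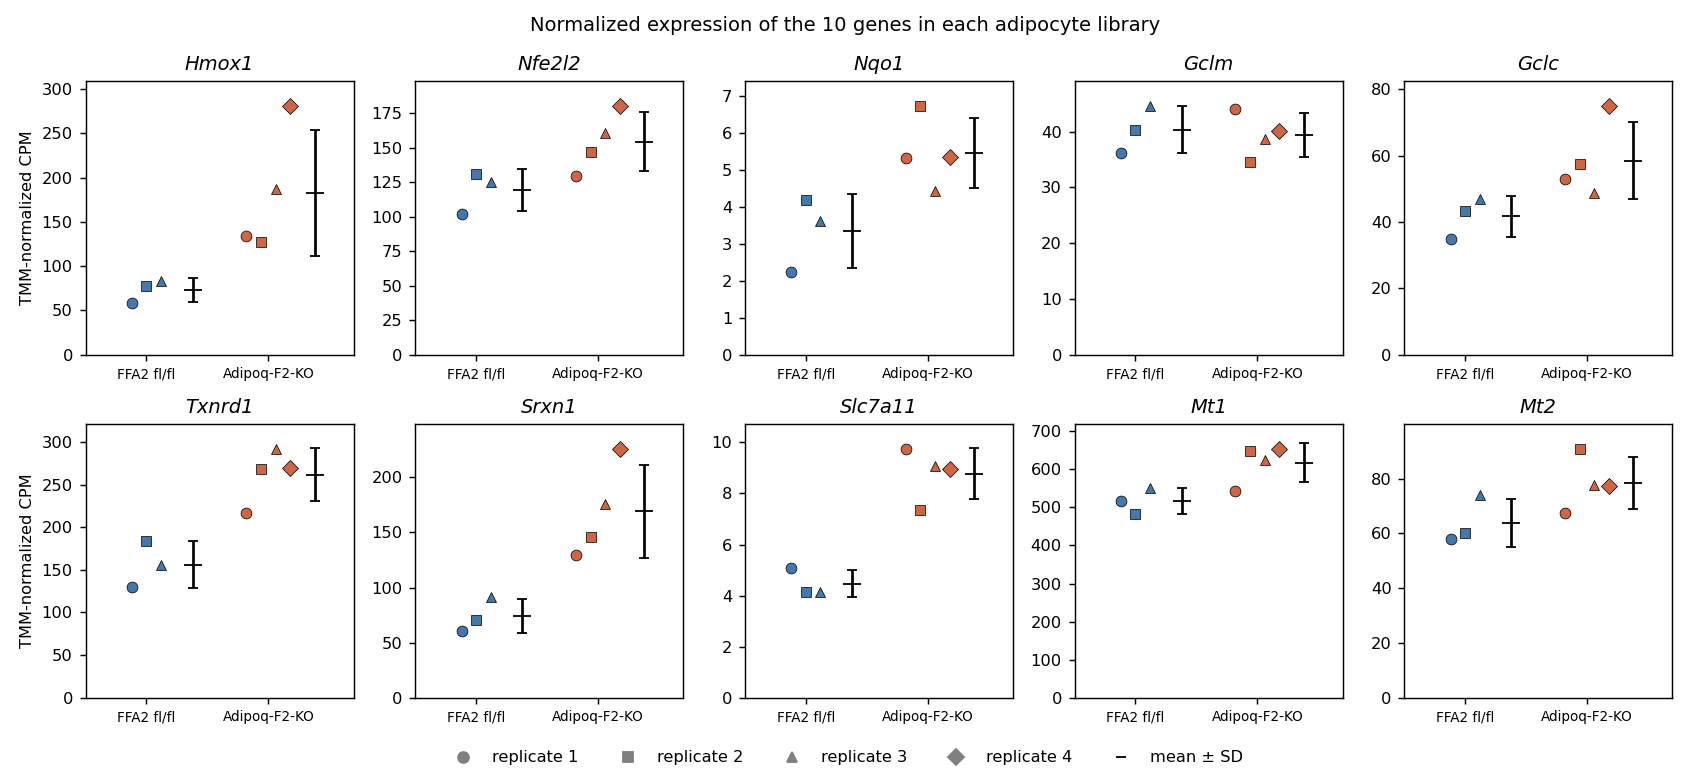
Normalized expression (TMM-scaled CPM, linear axis from 0) of the 10 genes in each of the 3 FFA2 fl/fl and 4 Adipoq-F2-KO libraries, 1 point per mouse with the mean and SD of each genotype beside the points. The genotypes do not overlap for Hmox1, Nqo1, Gclc, Txnrd1, Srxn1 and Slc7a11, and those of Gclm overlap over most of their range.

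Hmox1 (ENSMUSG00000005413, chromosome 8, 75820249 to 75827217, plus strand) was found at 58.2, 77.5 and 83.7 CPM in FFA2 fl/fl libraries and at 134, 128, 187 and 281 CPM in Adipoq-F2-KO libraries. The lowest knockout library was above the highest control library, and replicate 4 of Adipoq-F2-KO was the highest of the knockout libraries. The means were 73.1 ± 13.3 CPM (SD, n = 3) and 183 ± 70.8 CPM (SD, n = 4), and the log2 fold change was 1.32 with a standard error of 0.25 (95% interval 0.77 to 1.87; edgeR adjusted p = 0.0406). An exact two-sided permutation test on the mean CPM gave p = 0.0857, where the smallest value that 3 libraries against 4 can give is 0.0286. Without replicate 4 of Adipoq-F2-KO, the log2 fold change of Hmox1 was 1.03 (edgeR adjusted p = 0.0256). The positions given here and for the genes that follow are gene spans as listed in the deposited table, which names no genome build and does not match GRCm38.

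Markers of macrophages mostly had positive log2 fold changes, as had the endothelial, fibroblast progenitor and erythroid markers given below. The summed level of 16 macrophage markers was 529, 686 and 592 CPM in FFA2 fl/fl and 797, 768, 907 and 961 CPM in Adipoq-F2-KO libraries. The genotypes did not overlap, and replicates 3 and 4 of the knockout were highest for this sum and for Hmox1. Among the controls, replicate 2 was highest for the sum and replicate 3 for Hmox1. Of the 16 genes, 14 had a positive log2 fold change, with a list median of 0.58. At an unadjusted p under 0.05, 10 of the 16 passed in edgeR, beside 17.9% of all genes tested. In 6 of the 16 every Adipoq-F2-KO library lay above every FFA2 fl/fl library, beside 8.86% of all genes tested. EdgeR called 2 of the 16 higher, beside 0.798% of all genes tested. Lyz2, lysozyme of phagocytes, was one, with 90.8 ± 15.7 CPM (SD, n = 3) against 147 ± 13.7 CPM (SD, n = 4; log2 fold change 0.69, edgeR adjusted p = 0.0383). Cd68, a lysosomal protein of macrophages, was the other, at 27.3 ± 5.81 against 44.9 ± 3.65 CPM (log2 fold change 0.72, edgeR adjusted p = 0.0416). When 1 library was left out at a time, Lyz2 was called in 3 of 7 fits (without FFA2 fl/fl replicate 2 or Adipoq-F2-KO replicate 1 or 4; highest edgeR adjusted p = 0.201) and Cd68 in 1 (without FFA2 fl/fl replicate 2; highest edgeR adjusted p = 0.227). DESeq2 called 8 of the 16 higher, beside 4.67% of all its genes. Cd74, the most abundant of the list, was at 218 against 316 CPM and was not called (edgeR adjusted p = 0.129). The hemoglobin scavenger receptor Cd163 was at 24.9 to 37.8 CPM in FFA2 fl/fl and 23.4 to 31.2 CPM in Adipoq-F2-KO libraries, and Spic, a factor of heme-handling macrophages, was below 1 CPM in every library. The part of the macrophage markers in the Hmox1 difference was not tested.

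Srxn1 (ENSMUSG00000032802, chromosome 2, 151947436 to 151953296), which encodes sulfiredoxin and repairs over-oxidized peroxiredoxins, ranked the libraries as Hmox1 did, apart from replicates 1 and 2 of the knockout. It stood at 60.5, 70.4 and 91.5 CPM in FFA2 fl/fl and at 129, 146, 175 and 226 CPM in Adipoq-F2-KO libraries. The genotypes did not overlap, and replicates 3 and 4 of the knockout were again highest. The log2 fold change was 1.19 with a standard error of 0.19 (95% interval 0.77 to 1.61; edgeR adjusted p = 0.0332, exact permutation p = 0.0286).

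Txnrd1 (ENSMUSG00000020250, chromosome 10, 82669785 to 82733546) encodes the cytosolic thioredoxin reductase, which returns thioredoxin to its reduced state. Its values were 130, 184 and 155 CPM in FFA2 fl/fl and 217, 269, 292 and 270 CPM in Adipoq-F2-KO libraries. Here replicate 4 of the knockout did not stand out, and the log2 fold change of 0.74 had a standard error of 0.13 (95% interval 0.45 to 1.04; edgeR adjusted p = 0.0383, exact permutation p = 0.0286). The small gene Eid3 lies inside the span of Txnrd1 on the same strand, with a mean of 121 counts beside 7635 for Txnrd1, and how shared reads were assigned is not stated. Gm17494 overlaps Gclm on the other strand, with 55.4 counts beside 1422.

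Slc7a11 (ENSMUSG00000027737, chromosome 3, 49846975 to 50398063, minus strand) encodes the light chain of the cystine-glutamate exchanger, which brings in the cystine used for glutathione. It was low throughout, at 5.07, 4.16 and 4.16 CPM in FFA2 fl/fl and 9.73, 7.35, 9.07 and 8.95 CPM in Adipoq-F2-KO libraries, which are 142 to 388 counts. The 4 knockout libraries lay close together and above all controls. The log2 fold change was 0.98 with a standard error of 0.18 (95% interval 0.59 to 1.36; edgeR adjusted p = 0.0383, exact permutation p = 0.0286).

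The calls of these 4 genes depended on single libraries more than their sizes did. Over the 7 fits that each left out 1 library, log2 fold changes ranged from 1.03 to 1.46 for Hmox1, from 1.02 to 1.38 for Srxn1, from 0.63 to 0.88 for Txnrd1 and from 0.92 to 1.08 for Slc7a11. Hmox1 remained called without replicate 1 or 4 of Adipoq-F2-KO. Its edgeR adjusted p was 0.210, 0.0805 and 0.135 without FFA2 fl/fl replicates 1, 2 and 3, and 0.0570 and 0.0734 without Adipoq-F2-KO replicates 2 and 3. Srxn1 was called in the same 2 fits, with adjusted p values of 0.196, 0.0650 and 0.0567 without the 3 controls in turn and 0.0570 and 0.0546 without Adipoq-F2-KO replicates 2 and 3. Txnrd1 was called in 3 fits, and its adjusted p was 0.207 and 0.155 without FFA2 fl/fl replicates 1 and 3 and 0.0677 and 0.0689 without Adipoq-F2-KO replicates 2 and 3. Slc7a11 was called in 1 fit, that without Adipoq-F2-KO replicate 4, and had adjusted p values between 0.0567 and 0.196 in the other 6. In the same 7 fits the number of all genes called ranged from 1 (without FFA2 fl/fl replicate 1) to 178 (without Adipoq-F2-KO replicate 1), beside 173 with all libraries. Without FFA2 fl/fl replicates 2 and 3 it was 41 and 5, and without Adipoq-F2-KO replicates 2 and 3 it was 11 and 20.

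**Figure D2:**
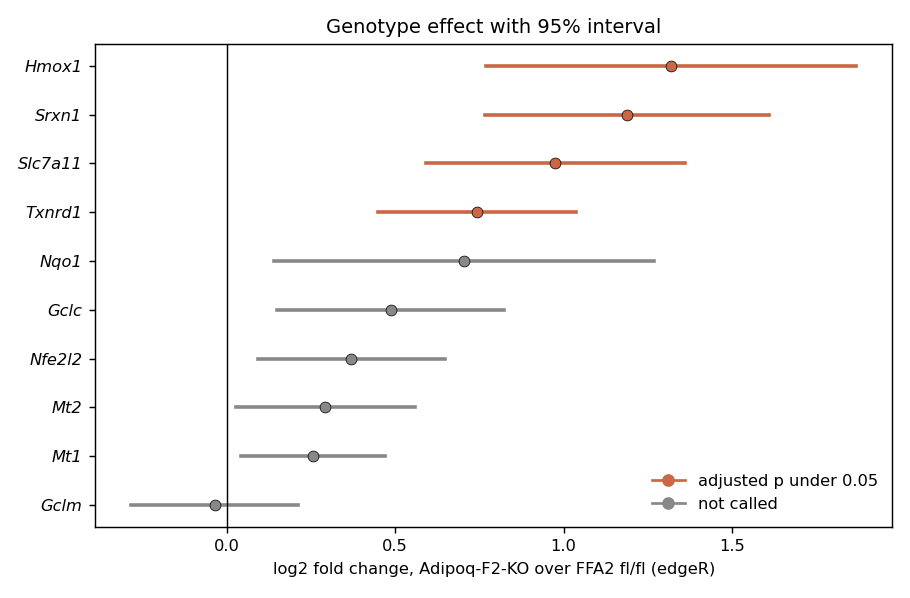
Log2 fold change of each of the 10 genes (horizontal axis, Adipoq-F2-KO over FFA2 fl/fl, edgeR) as a point with its 95% interval as a line, ordered by size, with called genes in orange and the others in grey. Hmox1, Srxn1, Slc7a11 and Txnrd1 are called, 5 further genes have intervals above 0 without being called after adjustment over all genes, and the interval of Gclm spans 0.

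The stretches of DNA in front of the genes were read for the letters of the antioxidant response element, to show what the called genes and Gclm carry there. RefSeq windows of 250 bases upstream of the transcription start (GRCm38.p6) were at hand for 8 of the 10 genes. Hmox1 and Gclc had no entry. The spellings TGACNNNGC and TGAGNNNGC were searched on both strands, the second of which was added after the windows had been read. At least one of these spellings occurred in 23.01% of the 32851 windows of all genes, with 10.2% for TGACNNNGC and 14.4% for TGAGNNNGC. The 4 windows below run 5′ to 3′ on the strand of the gene, with each match in capitals: Srxn1 (chr2:152105274-152105523, plus strand), one of 3 windows of Txnrd1 (chr10:82858956-82859205, plus strand), Slc7a11 (chr3:50443614-50443863, minus strand) and Gclm (chr3:122245307-122245556, plus strand).
Srxn1: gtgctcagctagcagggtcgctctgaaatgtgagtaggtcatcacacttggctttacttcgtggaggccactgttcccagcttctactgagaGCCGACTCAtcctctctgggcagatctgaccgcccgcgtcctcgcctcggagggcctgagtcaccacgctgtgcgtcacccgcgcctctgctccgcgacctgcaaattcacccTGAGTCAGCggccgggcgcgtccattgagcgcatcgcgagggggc
Txnrd1: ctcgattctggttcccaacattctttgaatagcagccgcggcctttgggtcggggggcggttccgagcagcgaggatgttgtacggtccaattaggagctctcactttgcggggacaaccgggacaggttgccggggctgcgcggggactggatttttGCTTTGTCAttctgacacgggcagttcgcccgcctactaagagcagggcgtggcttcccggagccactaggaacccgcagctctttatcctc
Slc7a11: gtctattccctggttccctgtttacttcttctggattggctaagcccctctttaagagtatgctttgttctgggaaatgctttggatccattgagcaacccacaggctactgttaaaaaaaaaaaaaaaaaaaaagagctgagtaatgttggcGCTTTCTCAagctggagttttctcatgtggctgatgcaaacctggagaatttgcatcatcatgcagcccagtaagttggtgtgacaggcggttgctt
Gclm: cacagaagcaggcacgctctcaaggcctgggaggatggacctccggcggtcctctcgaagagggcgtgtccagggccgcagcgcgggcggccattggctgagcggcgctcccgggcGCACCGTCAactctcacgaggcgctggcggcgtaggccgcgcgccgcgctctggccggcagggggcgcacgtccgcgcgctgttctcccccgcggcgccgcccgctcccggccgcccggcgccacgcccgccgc
Srxn1 held TGAGNNNGC at 2 places, which begin 158 and 45 bases upstream of the start. Slc7a11 held the same spelling at 97 bases. Txnrd1 held TGACNNNGC at 92 bases in the window shown and no match in its other windows, and Gclm held it at 134 bases. Of the called genes with a window, Srxn1 and Slc7a11 matched the spelling that was added later and not TGACNNNGC, Txnrd1 matched TGACNNNGC, as did the uncalled Gclm, and Hmox1 could not be read. Nfe2l2 had TGACNNNGC at 240 bases and Nqo1 had no match in its window. These are matches of letters, and binding was not measured. Bases beyond the 250 of each window were not searched, so a gene without a match may carry an element elsewhere.

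Nqo1, Gclc and Gclm, which are classical NRF2 targets, were not called. Nqo1 (ENSMUSG00000003849, chromosome 8, 108114857 to 108129838, minus strand), the quinone reductase, was low throughout, at 2.24, 4.18 and 3.63 CPM in FFA2 fl/fl and 5.34, 6.74, 4.42 and 5.36 CPM in Adipoq-F2-KO libraries. Its genotypes did not overlap, with 84 to 222 counts behind each value. The log2 fold change was 0.70 with a standard error of 0.26 (95% interval 0.14 to 1.27; edgeR adjusted p = 0.188, exact permutation p = 0.0571).

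Glutamate-cysteine ligase, the enzyme of the first step of glutathione synthesis, has a catalytic subunit (Gclc) and a modifier subunit (Gclm), and its subunits had different values here. Gclc (ENSMUSG00000032350, chromosome 9, 77661817 to 77701767) stood at 34.95, 43.3 and 47.0 CPM in FFA2 fl/fl and 53.0, 57.4, 48.6 and 75.0 CPM in Adipoq-F2-KO libraries. All 4 knockout libraries were above the controls, with the lowest close to the highest control. The log2 fold change was 0.49 with a standard error of 0.15 (95% interval 0.15 to 0.82; edgeR adjusted p = 0.142, exact permutation p = 0.0571). In DESeq2, which called 4.67% of its genes higher and 6.21% in either direction, Gclc joined the 4 called genes (adjusted p = 0.0446). Gclm (ENSMUSG00000028124, chromosome 3, 122039206 to 122064381) was at 36.1, 40.3 and 44.6 CPM in FFA2 fl/fl and at 44.1, 34.5, 38.7 and 40.0 CPM in Adipoq-F2-KO libraries. The genotypes overlapped over nearly their whole range, and the log2 fold change of -0.04 had a standard error of 0.11 (95% interval -0.28 to 0.21; edgeR adjusted p = 0.901), an interval that leaves out a rise of the size seen for Hmox1, Srxn1, Slc7a11 or Txnrd1.

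Nfe2l2 (ENSMUSG00000015839, chromosome 2, 75505857 to 75534985, minus strand), the gene of NRF2 itself, stood at 102, 131 and 125 CPM in FFA2 fl/fl and at 129, 147, 161 and 180 CPM in Adipoq-F2-KO libraries. The genotypes overlapped by a single pair of libraries. The log2 fold change was 0.37 with a standard error of 0.13 (95% interval 0.09 to 0.65), and it was not called by edgeR (adjusted p = 0.166). With a filter that kept every gene with at least 1 count, under which 3.76% of 28515 genes were called higher, Nfe2l2 (adjusted p = 0.0393) and Gclc (adjusted p = 0.0049) joined the 4 called genes in edgeR. NRF2 is regulated largely at the level of the protein, which was not measured here.

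The metallothioneins were the genes of the 10 with the highest level per length, and the genotypes overlapped for both. Mt1 (ENSMUSG00000031765, chromosome 8, 94905710 to 94906955) was at 517, 482 and 552 CPM in FFA2 fl/fl and 544, 648, 625 and 653 CPM in Adipoq-F2-KO libraries. Mt2 (ENSMUSG00000031762, chromosome 8, 94899292 to 94900196), its neighbour, was at 57.8, 60.1 and 73.9 CPM and at 67.5, 90.8, 77.5 and 77.3 CPM. In both genes replicate 1 of Adipoq-F2-KO lay within the range of the controls and the other 3 knockout libraries above it. The log2 fold changes were 0.26 for Mt1 (standard error 0.10, 95% interval 0.04 to 0.47, edgeR adjusted p = 0.204) and 0.29 for Mt2 (standard error 0.12, 95% interval 0.03 to 0.56, edgeR adjusted p = 0.240). The upper bounds of both intervals lie below the lower bound of 0.77 for Hmox1. An antisense gene, Gm45774, overlaps the start and most of the span of Mt2 (its own span runs from 94897376 to 94900040) with a mean of 126 counts beside 2548 for Mt2, and whether the counting used strand is not stated.

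The upstream windows of the metallothionein pair are shown because they carry the letters of the metal response element, which MTF1 binds. The spellings TGCACNC and TGCGCNC, on either strand, occurred in 10.4% and 12.5% of the 32851 windows and at least one of them in 21.4%. Mt2 (chr8:94172368-94172617, plus strand) and Mt1 (chr8:94178839-94179088, plus strand) are printed 5′ to 3′ from GRCm38.p6, with metal and antioxidant response element spellings in capitals.
Mt2: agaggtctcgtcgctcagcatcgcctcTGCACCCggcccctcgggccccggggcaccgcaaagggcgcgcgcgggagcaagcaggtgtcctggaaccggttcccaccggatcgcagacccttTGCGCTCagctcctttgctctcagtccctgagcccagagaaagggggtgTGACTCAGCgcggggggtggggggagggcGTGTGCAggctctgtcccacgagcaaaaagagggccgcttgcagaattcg
Mt1: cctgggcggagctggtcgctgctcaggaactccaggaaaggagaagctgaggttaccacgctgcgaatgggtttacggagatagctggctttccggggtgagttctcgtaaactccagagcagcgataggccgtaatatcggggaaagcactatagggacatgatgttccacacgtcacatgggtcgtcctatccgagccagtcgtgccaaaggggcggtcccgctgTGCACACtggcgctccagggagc
Mt2 held TGCACNC at 223 and 50 bases and TGCGCNC at 128 bases upstream of the start, and TGACNNNGC at 79 bases. Within its window Mt1 held TGCACNC at 23 bases and neither antioxidant spelling. Bases outside the windows were not read, so elements there would have been missed in either gene. TGCGCNC also occurred in the windows of Srxn1 and Gclm, where one match in Gclm overlaps the antioxidant spelling.

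Whether Hmox1 moved with the other genes or apart from them was asked directly, by the log2 ratio of Hmox1 to each other gene in every library (0.5 CPM added to both). The ratio to Srxn1 did not separate the genotypes. It was -0.06, 0.14 and -0.13 in FFA2 fl/fl and 0.05, -0.19, 0.09 and 0.32 in Adipoq-F2-KO libraries, a difference of 0.08 with a standard error of 0.14 (exact permutation p = 0.6). The ratio to Gclm differed most, at 0.68, 0.93 and 0.90 in FFA2 fl/fl and 1.60, 1.87, 2.26 and 2.80 in Adipoq-F2-KO libraries, a difference of 1.29 with a standard error of 0.31 (exact permutation p = 0.0286).

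Between these ends lay the other 7 ratios. The genotypes overlapped for the ratio of Hmox1 to Slc7a11 (difference 0.36, standard error 0.36, exact permutation p = 0.4), to Txnrd1 (0.51, standard error 0.29, p = 0.143) and to Nqo1 (0.60, standard error 0.40, p = 0.257). Single libraries moved these values. Without Adipoq-F2-KO replicate 4 the differences were 0.13 for Slc7a11, 0.29 for Txnrd1 and 0.37 for Nqo1, and without FFA2 fl/fl replicate 1 that for Slc7a11 was 0.11. For Srxn1, leaving out 1 library gave 0.0011 (without Adipoq-F2-KO replicate 4) to 0.17 (without Adipoq-F2-KO replicate 2). The genotypes did not overlap for the ratio to Gclc (0.78, standard error 0.24, exact permutation p = 0.0571), to Nfe2l2 (0.89, standard error 0.22, p = 0.0286), to Mt2 (0.97, standard error 0.35, p = 0.0571) and to Mt1 (1.00, standard error 0.31, p = 0.0571). Thus for 5 of the 9 ratios all Adipoq-F2-KO libraries lay above all controls. Among all genes tested, the ratio of Hmox1 to the gene did so for 78.9%. The p values are not adjusted for the 9 comparisons, and 0.0286 is the smallest that this design can give.

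**Figure D3:**
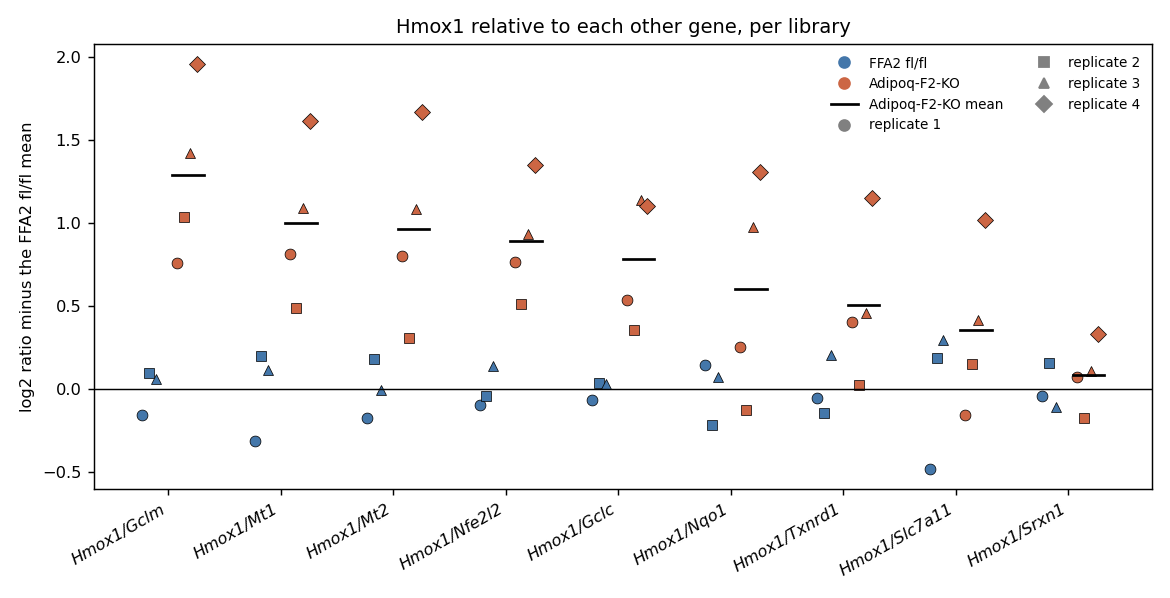
Log2 ratio of Hmox1 to each of the other 9 genes in every library, after subtraction of the mean of the 3 FFA2 fl/fl libraries (vertical axis, log2 units), ordered by the mean of Adipoq-F2-KO (black bar). Knockout libraries lie above all controls for Gclm, Mt1, Mt2, Nfe2l2 and Gclc and mix with them for Nqo1, Txnrd1, Slc7a11 and Srxn1, with replicate 4 of Adipoq-F2-KO at the top in all but the ratio to Gclc.

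Levels between genes were compared as CPM per kilobase of exon. Mt1 was highest, with a control mean of 415 and a knockout mean of 496, followed by Mt2 with 109 and 133. Hmox1 came next with 41.8 and 104. Its knockout mean stayed below that of Mt2, and its highest library, Adipoq-F2-KO replicate 4, reached 160. Nfe2l2 (31.5 and 40.7), Srxn1 (26.3 and 59.9) and Txnrd1 (22.1 and 36.9) lay below Hmox1. Gclc (11.1 and 15.5), Gclm (6.41 and 6.25), Nqo1 (2.16 and 3.52) and Slc7a11 (0.321 and 0.630) closed the order. Over all 7 libraries, the ranges of neighbours from Mt2 down to Gclc overlapped, and those of Mt1 and Mt2, Gclc and Gclm, Gclm and Nqo1, and Nqo1 and Slc7a11 did not.

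Likeness to Hmox1 was measured over the 7 libraries as the root mean square difference of centred log2 CPM, among the 8564 genes whose mean reached 10 CPM. Srxn1 was the third most like, with a difference of 0.160 log2 units. The other four nearest were Adamts4 (0.151), an aggrecan-cleaving protease, Zswim6 (0.158), Cemip2 (0.164), a cell-surface hyaluronidase, and Hbegf (0.181), a ligand of the EGF receptor. Among the remaining members, Txnrd1 ranked 215, Gclc 381, Nfe2l2 542, Mt1 1255, Mt2 1345 and Gclm 3356, while Nqo1 and Slc7a11 were below the level minimum. The measure includes the genotype difference itself and is a description without a test.

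A list of 29 other NRF2 targets did not hold a called gene in edgeR. Here and in each list below where edgeR made no call, limma voom made none either. In it, 8 genes had positive and 21 negative log2 fold changes, with a median of -0.12 beside 0.0037 over all genes. At an unadjusted p under 0.05, 4 of the 29 passed in edgeR, beside the 17.9% of all genes that did. DESeq2 called 1 of the 29 higher, beside 4.67% of all its genes. That gene was Ugdh, which makes UDP-glucuronate, with 43.9 ± 0.404 CPM in FFA2 fl/fl (SD, n = 3) and 64.3 ± 14.4 CPM in Adipoq-F2-KO (SD, n = 4; log2 fold change 0.55, edgeR adjusted p = 0.103, DESeq2 adjusted p = 0.0136). Cbr1, a carbonyl reductase, had the next smallest p, at 64.6 against 51.3 CPM (log2 fold change -0.33, edgeR adjusted p = 0.175). The summed level of the list was 9008 to 9576 CPM in FFA2 fl/fl and 7909 to 9367 CPM in Adipoq-F2-KO libraries, which overlapped. Fth1 alone gave 3008 to 3141 and 2765 to 3220 CPM of these sums. Fth1, Ftl1 and Blvrb also belong to the list of heme and iron handling below.

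Among 13 partners and inhibitors of NRF2, edgeR called Bach1 higher and none lower, where 0.798% of all genes tested were called higher. At an unadjusted p under 0.05, 3 of the 13 passed in edgeR, beside 17.9% of all genes. DESeq2 called 1 of the 13 higher, beside 4.67% of all its genes. BACH1 is the repressor that occupies the elements of Hmox1 until heme displaces it. Its mRNA stood at 121, 128 and 138 CPM in FFA2 fl/fl and 176, 256, 207 and 252 CPM in Adipoq-F2-KO libraries, without overlap, for a log2 fold change of 0.78 and a standard error of 0.13 (edgeR adjusted p = 0.0332). Leaving out 1 library at a time gave log2 fold changes of 0.72 to 0.88, and Bach1 was called without replicate 1 or 4 of Adipoq-F2-KO and not in the other 5 fits (highest adjusted p = 0.201). Keap1 was at 42.9 ± 2.79 CPM (SD, n = 3) and 35.2 ± 8.98 CPM (SD, n = 4), with the lowest value in Adipoq-F2-KO replicate 4. The median log2 fold change of the 13 genes was 0.11, with 8 positive and 5 negative.

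Genes of heme and iron handling, the pathway in which the Hmox1 enzyme acts, held no call in either direction among 21, with 10 positive and 11 negative log2 fold changes and a median of -0.01. At an unadjusted p under 0.05, 5 of the 21 passed in edgeR, beside 17.9% of all genes. DESeq2 called 1 of the 21 higher, beside 4.67% of all its genes. The smallest p values were those of Slc11a1, an iron exporter of phagosomes, at 12.8 against 18.03 CPM (log2 fold change 0.49, edgeR adjusted p = 0.0696), and of Ncoa4, the receptor that carries ferritin to lysosomes, at 148 against 124 CPM (log2 fold change -0.25, edgeR adjusted p = 0.210). Hmox2, the constitutive heme oxygenase, was at 29.7 to 36.4 CPM in FFA2 fl/fl and 29.3 to 33.0 CPM in Adipoq-F2-KO libraries, so the genotypes overlapped for it and not for Hmox1. The ferritin heavy chain Fth1 was at 3008 to 3141 and 2765 to 3220 CPM.

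For the zinc side of metallothionein control, 6 of 10 genes could be tested, and none was called by edgeR in either direction, although all 6 had positive log2 fold changes with a median of 0.17. In edgeR 2 of the 6 passed an unadjusted p under 0.05, as 17.9% of all genes did, and DESeq2 called 2 higher, beside 4.67% of all its genes. These were the zinc importer Slc39a14, at 11.3 against 18.2 CPM (log2 fold change 0.69, edgeR adjusted p = 0.0904, DESeq2 adjusted p = 0.0150), and the zinc exporter Slc30a1, at 11.0 against 16.3 CPM (log2 fold change 0.56, edgeR adjusted p = 0.117, DESeq2 adjusted p = 0.0495). Mtf1, the zinc sensor, was at 19.9 to 27.3 CPM in FFA2 fl/fl and 22.3 to 29.4 CPM in Adipoq-F2-KO libraries. Mt4 had 0 counts throughout, so that a level of 0.150 to 0.197 CPM per library would have gone unseen (6 counts, for counting error alone), and Mt3 stayed at or below 0.301 CPM.

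**Figure D4:**
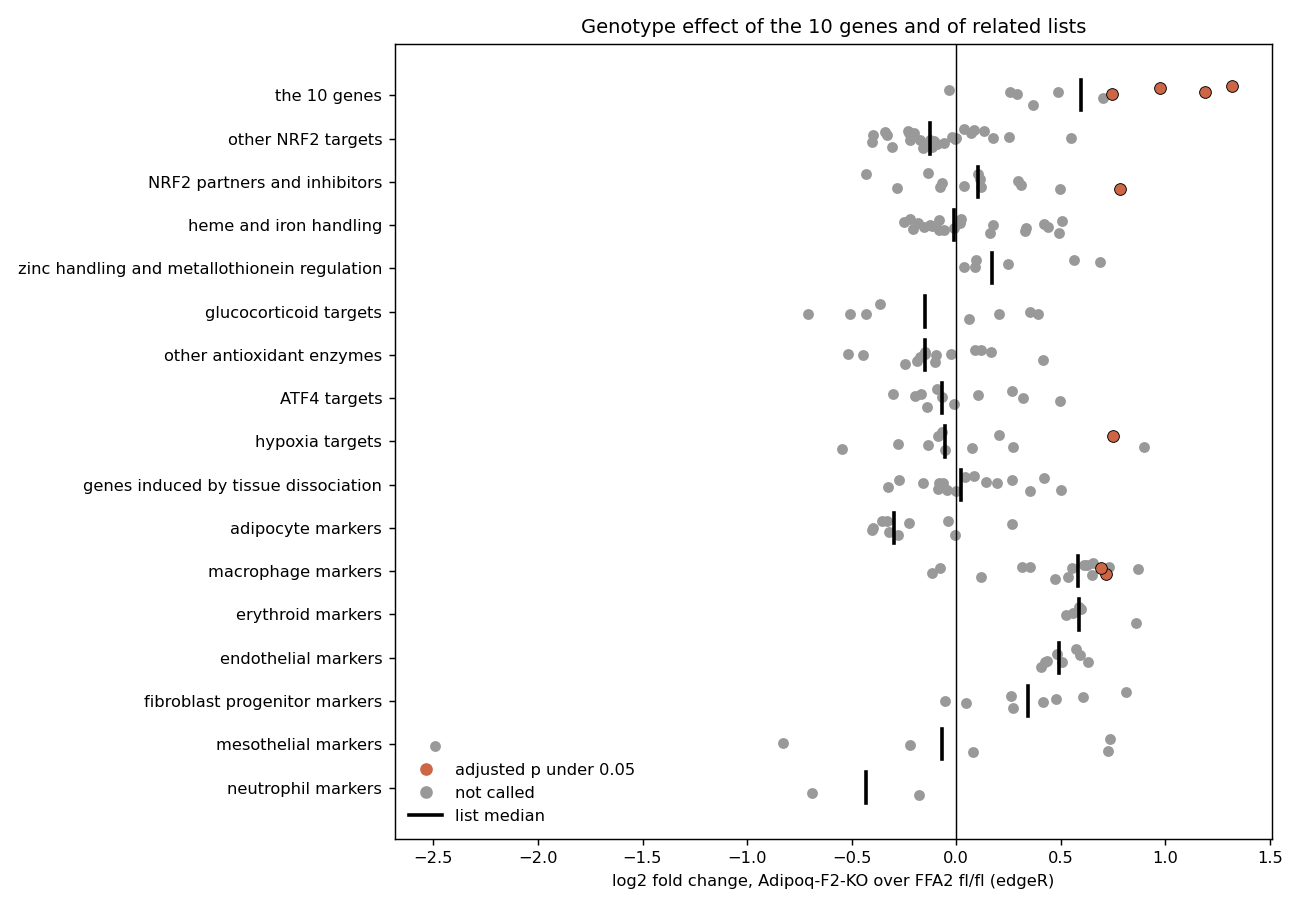
Log2 fold change (horizontal axis, Adipoq-F2-KO over FFA2 fl/fl, edgeR) of every tested gene in the set of 10 and in related gene and marker lists, 1 point per gene, with called genes in orange and the list median as a black bar. The set of 10 has 4 called genes and a median of 0.60, the 29 other NRF2 targets have none and a median of -0.12, and macrophage markers have 2 and a median of 0.58.

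Markers of adipocytes and of further cell types that the preparation could hold are given by list, with no gene called by edgeR in any of them. The counts at an unadjusted p under 0.05 are to be read beside the 17.9% of all genes tested that passed it. The counts of DESeq2 are to be read beside the 4.67% of all its genes called higher and the 6.21% called in either direction. The 10 adipocyte markers held no called gene in edgeR (6 at an unadjusted p under 0.05, and 2 called lower by DESeq2), 9 of them had negative log2 fold changes (median -0.30), and their sum was 39345 to 44284 CPM in FFA2 fl/fl and 30716 to 40117 CPM in Adipoq-F2-KO libraries, with the lowest value in replicate 4. Lipe, the hormone-sensitive lipase, was at 2062 against 1564 CPM and Slc2a4, the insulin-responsive glucose transporter, at 231 against 181 CPM (edgeR adjusted p = 0.104 and 0.0980). All 8 endothelial markers had positive log2 fold changes (median 0.49, none called by edgeR, 6 at an unadjusted p under 0.05, 3 called higher by DESeq2). Their sum was 801 to 1120 CPM in FFA2 fl/fl and 1108 to 1923 CPM in Adipoq-F2-KO libraries. FFA2 fl/fl replicate 1 was lowest and Adipoq-F2-KO replicate 4 highest, as for Hmox1 and for the sums of macrophage and fibroblast progenitor markers. Cdh5, the endothelial cadherin and the most abundant of them, was at 352 against 531 CPM, and the receptor Tek was at 37.2 against 57.5 CPM (edgeR adjusted p = 0.123 and 0.126). Of 8 fibroblast progenitor markers, 7 were positive and none was called by edgeR (median 0.34, 3 at an unadjusted p under 0.05, 1 called higher by DESeq2). Their sum was 848 to 1128 CPM in FFA2 fl/fl and 1208 to 1445 CPM in Adipoq-F2-KO libraries, which did not overlap, as for macrophage markers. Cd34 was at 40.6 against 71.4 CPM and the collagen Col3a1 at 535 against 713 CPM (edgeR adjusted p = 0.0980 and 0.184).

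Erythroid markers bear on heme, the substrate of the Hmox1 enzyme. Of 7, 5 were tested and all 5 had positive log2 fold changes (median 0.59, none called by edgeR or DESeq2, 2 at an unadjusted p under 0.05), and their sum was 97.6, 224 and 208 CPM in FFA2 fl/fl and 239, 223, 209 and 372 CPM in Adipoq-F2-KO libraries. The genotypes overlapped, with FFA2 fl/fl replicate 1 lowest and Adipoq-F2-KO replicate 4 highest. These libraries held the same places for Hmox1, Srxn1, Gclc and Nfe2l2. They also did so for the sums of macrophage, endothelial and fibroblast progenitor markers, so the order is not particular to erythroid markers. Alas2, the erythroid enzyme of heme synthesis, was at 3.97 against 7.23 CPM and Hba-a1 at 46.3 against 69.8 CPM (edgeR adjusted p = 0.183 and 0.247). Hbb-bs, the most abundant of the list, was at 79.5 against 115 CPM (edgeR adjusted p = 0.343). Mesothelial markers (3 positive and 3 negative of 6, median -0.07, none called by edgeR or DESeq2, 2 at an unadjusted p under 0.05) summed to 9.87 to 25.9 CPM and 7.52 to 11.0 CPM, with Krt19 at 7.80 against 1.39 CPM and Wt1 at 2.34 against 3.89 CPM. Neutrophil markers summed to 3.30 to 5.10 CPM and 2.82 to 3.98 CPM, 2 of 8 could be tested (S100a8 and Elane, neither called by edgeR or DESeq2 nor at an unadjusted p under 0.05), and Ly6g had 0 counts in every library. Genes induced by tissue dissociation had no call by edgeR or DESeq2 among 16 (1 at an unadjusted p under 0.05) and a median log2 fold change of 0.02, and their sums of 12591 to 15913 and 12904 to 14392 CPM overlapped. Dusp1 (400 against 511 CPM) and Jun (1319 against 1052 CPM) had the smallest p values of that list. The parts of the marker lists and of the dissociation genes in the differences of the 10 genes were not tested.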

How the data were processed

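RNA of mature adipocytes from 7 mice, 3 FFA2 fl/fl and 4 Adipoq-F2-KO, was sequenced as poly-A selected, stranded libraries. The authors used Trimmomatic for trimming, STAR for alignment and featureCounts for counting, and deposited raw counts per gene and library, beside each gene's exon length in bases (another deposited value). The submitters' notes name GRCm38 and mm10, but the positions in the table are not those of GRCm38. Options for strand, overlap and mates are not given in the sources used here. From 85.5% to 88.8% of nonzero counts under 50 were even, so 1 fragment appears to give 2 counts. Libraries of one genotype differed beyond sampling noise.

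Genes were kept by filterByExpr, scaled by TMM and tested with glmQLFTest (edgeR 4.0.16, R 4.3.3), with genotype as the sole term and Benjamini-Hochberg adjustment over 17039 genes. A gene was called at an adjusted p under 0.05. Ratios and levels of single genes were tested by exact two-sided permutation over the 35 regroupings of libraries (scipy 1.17.1). The test script was checked on simulated counts with a log2 fold change of 1 in 200 of 17039 genes. EdgeR recovered 58.3% of the changed genes, limma voom 56.7% and DESeq2 59.5%. Of the calls, 2.52% were false in edgeR, 1.74% in limma voom and 12.7% in DESeq2, so its calls are less strict. Alternatives were DESeq2 1.42.0, limma voom 3.58.1, other size factors, another filter, fits without mitochondrial genes, halved counts, a replicate block and leaving out each library.

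The 10 genes and all lists were chosen with earlier results of these data known. Besides the 10, the text names Ffar2, in each list the called genes or else those with the 2 smallest p values, the most abundant marker of a list, and the 5 genes most like Hmox1. Other genes (Keap1, Hmox2, Fth1, Mtf1, Mt3, Mt4, Cd163, Spic, Adipoq and Ly6g among them) were picked after their values were seen, for their role. The p-values measure the spread between mice of these litters.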

Additional observations from a re-analysis of the deposited data

Results flagged for a closer look

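Of 48 groups of 4 Adipoq-F2-KO libraries that were examined, 1 group per named gene, 3 had a library far from the others by Dixon's criterion at 95%, where chance gives about 1 in 20. None of these was among the 10 genes. Adipoq-F2-KO replicate 2 had 1420 CPM of Gpx3, the secreted glutathione peroxidase, where the other 3 had 1064 to 1112 CPM. Adipoq-F2-KO replicate 4 had 110 CPM of Cd34, a marker of progenitors and vessels, beside 55.6 to 60.5 CPM, and 36.4 CPM of Zswim6, the second most like Hmox1, beside 18.97 to 21.9 CPM.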

How the results depend on the processing

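The 4 called genes (Hmox1, Srxn1, Txnrd1 and Slc7a11) were the same 4 with RLE or upper-quartile factors, limma voom, halved counts and without mitochondrial genes. DESeq2 called 5 of the 10 and 890 genes in all, and a filter of at least 1 count gave 6 and 1403, beside 4 and 173. Leaving out 1 library moved the genes called between 1 and 178, the members called between 0 and 4, and the log2 fold change of Hmox1 between 1.03 and 1.46 (edgeR adjusted p 0.0256 to 0.210), and the cause was not tested. The 9 ratios of Hmox1 gave 5 to 7 without overlap over the same fits. Gclm ranged from -0.11 to 0.053 over these fits, and was positive without FFA2 fl/fl replicate 3 (0.053) and without Adipoq-F2-KO replicate 2 (0.03). Replicate numbers did not pair the mice: deviations of same-numbered libraries correlated at 0.03, -0.02 and -0.02. With the replicate number as a block, 224 genes and the same 4 members were called, with Hmox1 at 1.03 (edgeR adjusted p = 0.00956). Adipoq-F2-KO replicate 4 has no control of its number, so this fit draws the genotype difference from replicates 1 to 3. Leaving that library out also gave 1.03 for Hmox1. Low counts limit Nqo1 and Slc7a11, and 3 against 4 mice limit all calls.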

Other observations

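Slc7a11 is also a target of ATF4, the factor of the amino acid and unfolded protein responses. Of 11 ATF4-related genes none was called by edgeR, with 4 positive and 7 negative log2 fold changes and a median of -0.07. At an unadjusted p under 0.05, 3 passed in edgeR, beside 17.9% of all genes tested. DESeq2 called 1 of the 11 higher, beside 4.67% of all its genes. Atf4 itself was at 289 ± 22.9 CPM in FFA2 fl/fl (SD, n = 3) and 360 ± 47.1 CPM in Adipoq-F2-KO (SD, n = 4; log2 fold change 0.32, edgeR adjusted p = 0.181), and Ddit4, an inhibitor of mTORC1, at 24.4 ± 1.78 and 34.5 ± 6.63 CPM (log2 fold change 0.50, edgeR adjusted p = 0.130). Of 11 hypoxia targets, Slc2a1, the glucose transporter GLUT1, was called higher, at 35.4 ± 4.53 and 59.5 ± 9.79 CPM (log2 fold change 0.75, edgeR adjusted p = 0.0396), and the median of the list was -0.05. In edgeR 2 of the 11 passed an unadjusted p under 0.05 (17.9% of all genes did), and DESeq2 called 1 higher, beside 4.67% of all its genes. Of all genes tested, edgeR called 0.798% higher. Slc2a1 was called in 2 of the 7 fits that left out 1 library, those without Adipoq-F2-KO replicate 1 or 4, with log2 fold changes of 0.64 to 0.83 and an adjusted p of up to 0.207 (edgeR).

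Of 15 antioxidant enzymes outside the NRF2 lists, 11 had negative log2 fold changes (median -0.15). None was called by edgeR, and 4 passed an unadjusted p under 0.05 (17.9% of all genes did). DESeq2, which called 6.21% of all its genes in either direction, called 1 of the 15 lower. The summed level of the 15 was 5570 to 5835 CPM in FFA2 fl/fl and 4318 to 5218 CPM in Adipoq-F2-KO libraries, which did not overlap. Gpx3, the secreted glutathione peroxidase, was at 1592 against 1168 CPM (edgeR adjusted p = 0.110), and the mitochondrial thioredoxin reductase Txnrd2 was at 20.9 against 14.6 CPM (edgeR adjusted p = 0.117), where the cytosolic Txnrd1 rose. Glucocorticoid targets, which share a regulator with Mt1 and Mt2, had 4 positive and 4 negative log2 fold changes of 8 (median -0.15). None was called by edgeR, and 6 of the 8 passed an unadjusted p under 0.05 (17.9% of all genes did). DESeq2, which called 6.21% of all its genes in either direction, called 2 of the 8 lower. These were Zbtb16 at 282 against 209 CPM and Tsc22d3 at 168 against 119 CPM (edgeR adjusted p = 0.103 and 0.111).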
